A study of Homo sapiens with 6 samples.

Results

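The 39 HOX genes of the HOXA, HOXB, HOXC and HOXD clusters were examined in Hs578T cells, a triple-negative breast cancer cell line. Members were all rows of the gene count table whose symbol is HOX followed by a cluster letter A to D and a paralog number, which gave 39 of 46427 genes, 11 of them in HOXA, 10 in HOXB, 9 in HOXC and 9 in HOXD. RNA was sequenced from 3 libraries of cells transduced with a retroviral control shRNA (shCTRL) and 3 libraries of cells with 1 shRNA against CCN3 (shCCN3), a secreted matricellular protein. Both groups carried a pSUPER vector and had been selected with puromycin. Whether each line was a single clone or a pool is not given in the sources used here, so differences between lines and effects of the shRNA cannot be told apart.

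HOX genes encode homeodomain transcription factors that give cells a positional identity along the body axis. Each cluster is a row of genes in the order of their paralog numbers, and genes with the same number in different clusters are descended from a shared ancestor and encode similar DNA-binding domains. Low numbers act towards the head and high numbers towards the tail, the limbs and the urogenital tract. Many HOX proteins bind DNA together with PBX, MEIS and PKNOX proteins. Adult epithelia and the tumours that arise from them keep a HOX pattern of their own, and HOX genes are often mis-expressed in breast cancer.

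The libraries held 56159110 to 68393177 counts. At this depth 3 counts, the upper limit that a count of 0 allows, correspond to 0.0435 to 0.0540 CPM, the counts of a gene scaled to the size of its library, which covers counting error only. CCN3 mRNA was 103, 102 and 98.1 CPM in the shCTRL libraries and 47.4, 47.2 and 46.5 CPM in the shCCN3 libraries, with no overlap and an exact permutation p of 0.1 (two-sided), the smallest that 3 libraries against 3 allow. Libraries of a group differed beyond counting noise, with a chi-square per degree of freedom of 5.87 to 34.4, and shCCN3 replicate 2 stood farthest from its group. Markers of a mesenchymal-like line (VIM, FN1, CDH2, ZEB1, CD44, SPARC, AXL) were expressed in all libraries at a summed 14237.7 to 14424.3 CPM in shCTRL and 13559.8 to 13798.4 CPM in shCCN3, most of it VIM in shCTRL (7778 CPM) and in shCCN3 (7064 CPM). Among these 7, CDH2 was called higher (log2 fold change 0.87), CD44 was called lower (-0.25) and the others were not called. Of 10 luminal or epithelial markers, 6 were tested. KRT18 rose and KRT8 fell, ERBB2, PGR, FOXA1 and GATA3 were not called, and EPCAM, CDH1, ESR1 and KRT19 were near 0. The summed level was 253 to 282 CPM in shCTRL and 313 to 362 CPM in shCCN3. Most of this sum was KRT18 (mean 163 CPM in shCTRL, 232 CPM in shCCN3) and ERBB2 (77.9 and 78.2 CPM). Of 4 leukocyte markers, CD3E was at 0 in all libraries, and the sum was at most 0.828 CPM. The part of these marker differences in the HOX values was not tested. Fewer cells of a type and less RNA per cell cannot be told apart in bulk libraries.

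Hs578T cells expressed much of HOXA, HOXB and HOXC and little of HOXD. Of the 39 genes, 29 passed the filter on low counts and were tested, including 11 of 11 in HOXA, 8 of 10 in HOXB, 8 of 9 in HOXC and 2 of 9 in HOXD. The other 10 had at most 4 counts in any library, and no fold change is given for them. HOXB1, HOXD3, HOXD4, HOXD8, HOXD9 and HOXD11 were listed at 0 in all 6 libraries. Of the exon bases of HOXD3 and HOXD4, 62.2% and 80.5% are shared with another annotated gene on the same strand, and the part of this overlap in their zeros was not tested. HOXB7 had 4 counts in shCCN3 replicate 2, HOXC12 had 4 counts in shCTRL replicate 3, HOXD10 had 2 counts in shCTRL replicate 2, and HOXD12 had 0, 2 and 0 counts in shCTRL and 4, 0 and 3 counts in shCCN3. HOXB7 thus lay at or near 0 between HOXB6, one of the more abundant members, and HOXB8 and HOXB9.

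Knockdown cells had less HOX mRNA in sum. The summed level of the 39 genes was 258, 263 and 266 CPM in shCTRL and 220, 212 and 198 CPM in shCCN3, a ratio of means of 0.8004. The HOXA sum went from 81.9 ± 1.82 to 56.7 ± 3.19 CPM (SD, n = 3 each), a ratio of 0.692, and the HOXC sum from 120 ± 1.81 to 94.5 ± 6.40 CPM, a ratio of 0.790. HOXA lies on chromosome 7, whose tested genes had a median log2 fold change of -0.43. The part of that difference in the sums was not tested. The HOXB sum was 59.7 ± 0.482 CPM in shCTRL and 57.1 ± 1.71 CPM in shCCN3, with a ratio of 0.957, and every shCCN3 value lay below every shCTRL value here too, by a small margin. HOXD contributed 1.14 ± 0.238 CPM and 1.65 ± 0.258 CPM. HOXC genes made up 45.6% of HOX counts in shCTRL and 44.99% in shCCN3, whereas the HOXA share was 31.2% and 27.0%.

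**Figure D1:**
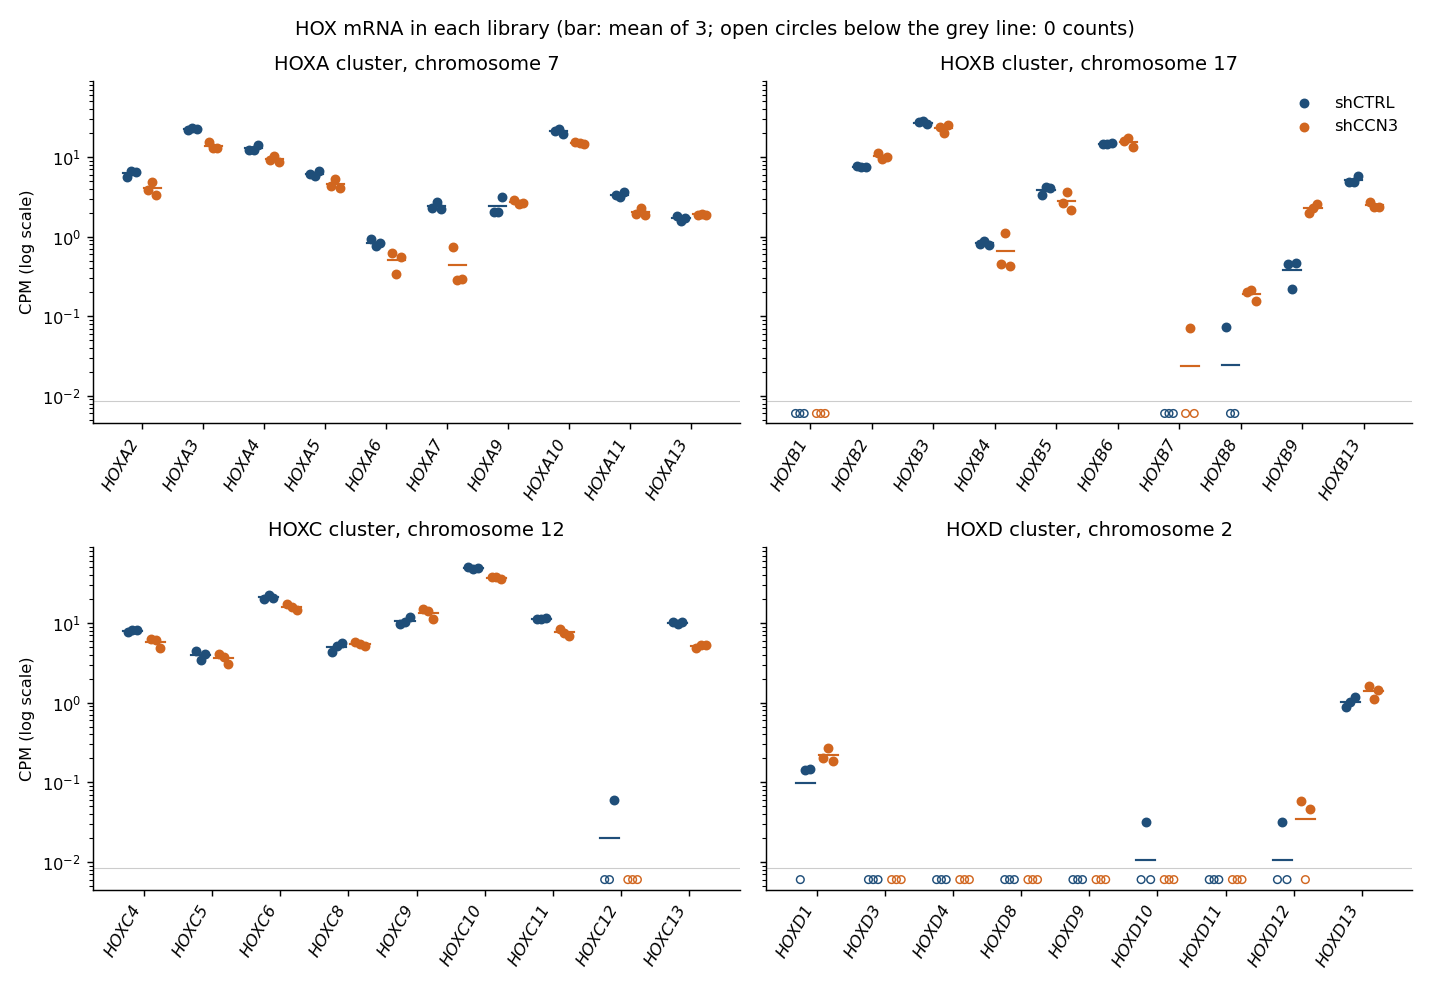
Level of HOX genes in each library, as CPM on a log axis, by cluster; points are libraries (blue shCTRL, orange shCCN3), bars are means of 3, and open circles below the grey line are libraries with 0 counts. HOXA and HOXC genes mostly sit lower in shCCN3, HOXB9 sits higher, and most of HOXD is at 0.

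Among the 29 genes tested, 16 were called at an adjusted p under 0.05 by edgeR's quasi-likelihood test (Benjamini-Hochberg over all 17419 genes tested), 13 lower and 3 higher in shCCN3. Over all genes tested, 33.4% were called, 17.3% lower and 16.2% higher. Of the 13 called lower, 7 were HOXA genes on chromosome 7, where 59.0% of genes tested were called lower. The median log2 fold change was -0.40 over the HOX genes tested and 0.01 over all genes tested. In 20 of the 29 genes the 3 libraries of each group did not overlap, with shCCN3 below in 15 and above in 5. Over all genes tested the groups did not overlap in 46.3%, with shCCN3 below in 23.6% and above in 22.7%. HOXB8 and HOXD1 passed the filter on low counts only through their shCCN3 libraries. Their direction and lack of overlap are therefore not independent of that filter. Changes of at least 2-fold were called in 4 HOX genes (HOXA7, HOXB8, HOXB9 and HOXB13), beside 8.1% of all genes tested. Without shCTRL replicate 3 that count was 2, because HOXB8 was no longer called and the log2 fold change of HOXB13 was -0.97.

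By cluster, 7 of 11 HOXA genes were called, all lower, and 5 of 8 HOXC genes, all lower. In HOXB, 3 of 8 were called higher and 1 lower. Neither of the 2 HOXD genes tested was called. Both log2 fold changes were positive, but HOXD1 passed the filter on low counts only through shCCN3, so its sign is not independent of the filter. The unadjusted p was under 0.05 in 0 HOXD genes, in 0 HOXA genes on the higher side and in 1 HOXC gene on the higher side, and DESeq2, edgeR's exact test and limma-voom called 0 of these. The median log2 fold change was -0.48 in HOXA, -0.08 in HOXB, -0.40 in HOXC and 0.81 in HOXD. The HOXD value rests on only 2 genes, HOXD1 and HOXD13. When single libraries were left out, the number of HOXA genes called lay between 5 and 7, of HOXB genes between 3 and 5, and of HOXC genes between 5 and 6.

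**Figure D2:**
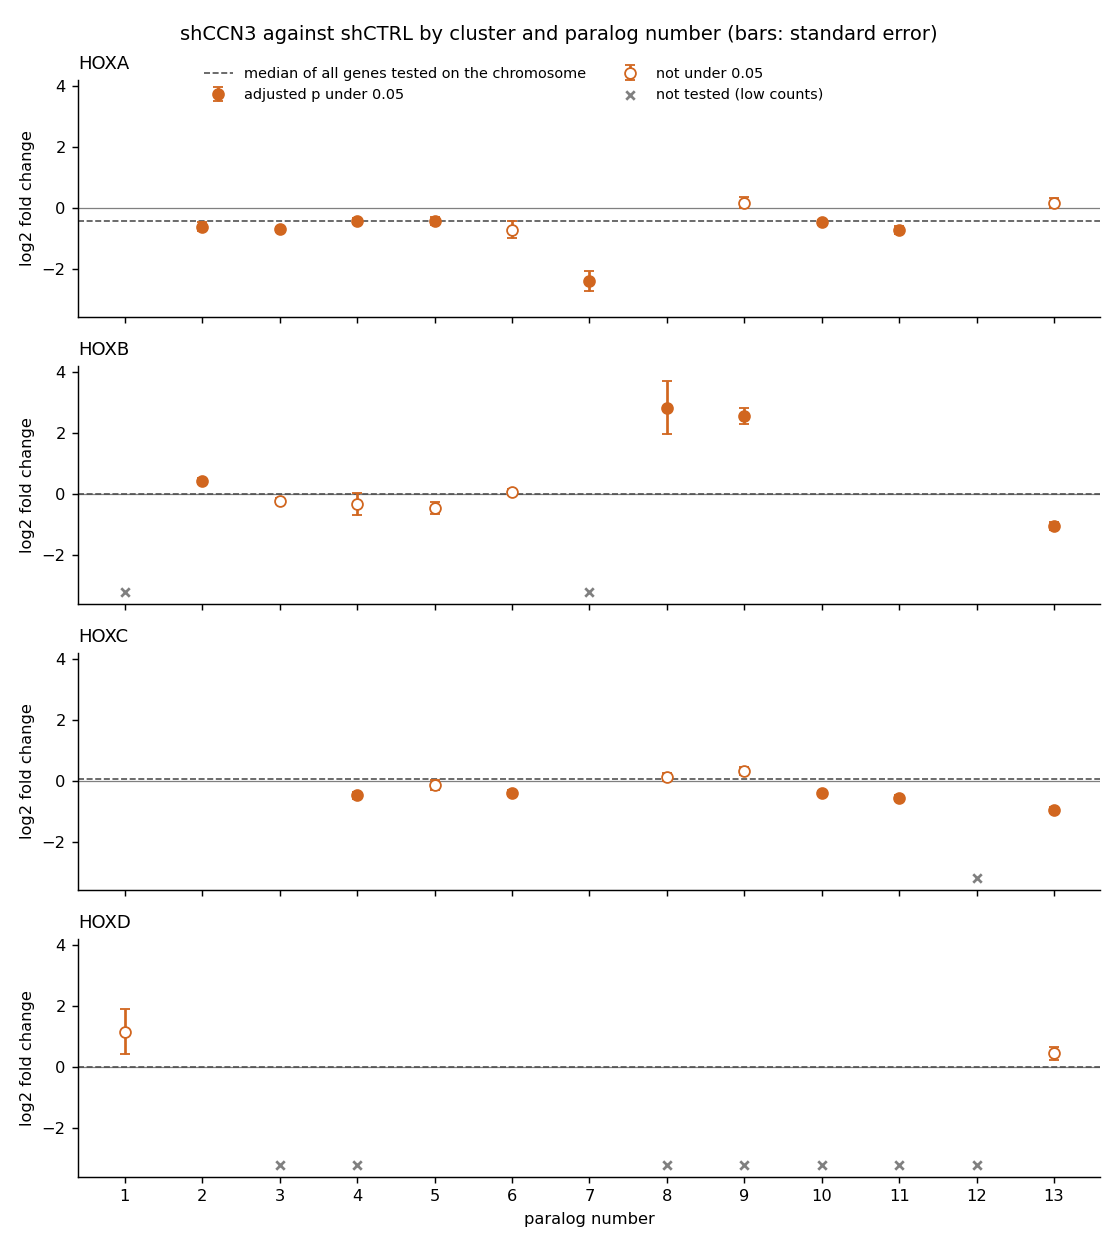
Log2 fold change of shCCN3 against shCTRL (vertical axis, bars are standard errors) for tested HOX genes by paralog number (horizontal axis) in 4 panels by cluster; filled points have an adjusted p under 0.05, crosses mark genes not tested, and dashed lines are the median of all genes tested on that chromosome. HOXA7 at -2.42, HOXB8 at 2.84 and HOXB9 at 2.57 lie farthest from 0. HOXB8 and HOXD1 passed the filter on low counts only through shCCN3.

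The HOXA cluster lies on chromosome 7 of GRCh38 from HOXA2 at 27100354 to HOXA13 at 27200091 (RefSeq), a chromosome whose genes were on balance lower in shCCN3 libraries. Over 821 tested genes of chromosome 7 the median difference was -0.43 on the log2 scale, and 59.0% of them were called lower and 3.78% higher. On chromosomes 17, 12 and 2, which hold HOXB, HOXC and HOXD, the medians were 0.01, 0.04 and 0.01. The HOXA median of -0.48 was thus close to that of its chromosome, and the share of HOXA genes called, 63.6%, was close to the share of chromosome 7 genes called lower. The part of the chromosome-wide difference in the HOXA values was not tested, and DNA copy number was not measured here. Of the 11 HOXA genes, 8 lay below the chromosome median, but HOXA4, HOXA5 and HOXA10 differed from it by only -0.02, -0.0035 and -0.05 on the log2 scale.

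Within HOXA, the log2 fold change of HOXA7 lay farthest from the median of chromosome 7. HOXA7, one of the central trunk-patterning HOX genes, had 157, 172 and 147 counts in shCTRL and 51, 16 and 19 counts in shCCN3. As CPM these were 2.29, 2.74 and 2.19 against 0.740, 0.288 and 0.297. All shCCN3 libraries were below all shCTRL libraries, and shCCN3 replicate 1 was the highest of its group. The log2 fold change of HOXA7 was -2.42 (SE, the standard error, 0.335, adjusted p = 0.000539, edgeR's quasi-likelihood test), a 5.34-fold lower level. It was -1.99 relative to the median of chromosome 7, and 158 of the 17419 genes tested had a more negative log2 fold change. Without shCCN3 replicate 1 the value was -3.03, and across all alternatives the gene stayed called. In GENCODE release 29, 62.5% of the HOXA7 exon bases are also covered by HOXA-AS3 on the opposite strand. The HOXA-AS3 row held only 0.0817 ± 0.0395 CPM in shCTRL and 0.120 ± 0.0501 CPM in shCCN3 (SD, n = 3 each).

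The promoter window of HOXA7 is shown because this gene had the largest fall. It covers 250 bases before to 50 bases after the RefSeq start, chr7:27156626-27156925 of GRCh38.p14, on the minus strand. Capitals mark matches, on either strand, to the CCAAT box (CCAAT), the GC box (GGGCGG) and the E-box (CACGTG).
HOXA7 promoter: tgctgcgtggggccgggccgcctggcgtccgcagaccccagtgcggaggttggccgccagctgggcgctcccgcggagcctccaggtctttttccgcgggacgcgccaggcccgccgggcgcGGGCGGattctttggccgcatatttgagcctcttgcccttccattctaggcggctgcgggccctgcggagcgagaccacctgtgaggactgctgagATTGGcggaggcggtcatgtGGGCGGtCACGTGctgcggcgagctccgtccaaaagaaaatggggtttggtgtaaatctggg
This window has a GC content of 68.0% and 31 CpG dinucleotides, with 1 CCAAT box, 2 GC boxes and 1 E-box. RefSeq windows were at hand for 20 of the 39 HOX genes (26 windows), and not for HOXB8, HOXB9 or HOXB13. Most were windows of HOXA and HOXD genes. The only HOXB gene with a window was HOXB1, at 0 in all libraries, and the only HOXC genes were HOXC4 and HOXC5. The shares below thus do not stand for the HOX genes expressed here. Of the 26 windows, 65.4% held a CCAAT box, 50% a GC box, 34.6% the E-box and 19.2% a TATA box (TATAAA). The shares among all 35116 windows were 34.6%, 45%, 7.26% and 11.5%. HOX windows had a median of 22.5 CpG dinucleotides, against 14 in all windows, at a GC content of 58% against 58.7%. The HOX-PBX motif TGATTNAT was in 7.69% of HOX windows and 2.82% of all, and the MEIS and PKNOX motif TGACAG in 15.4% and 15.8%. The motifs were chosen after fold changes were known, several windows belong to 1 gene, and a match is no evidence of binding.

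HOXA7 is also the HOX gene with the most exact seed matches to miR-196, microRNAs that are encoded inside the HOXA, HOXB and HOXC clusters and are known to repress HOX mRNAs. Their mature sequences, from RefSeq, are shown with the seed (bases 2 to 8) in capitals. MIR196B lies at chr7:27169528-27169549, between HOXA9 and HOXA10, MIR196A2 at chr12:53991762-53991783, between HOXC10 and HOXC9, and MIR196A1 at chr17:48632532-48632553, beyond HOXB9.
hsa-miR-196b-5p: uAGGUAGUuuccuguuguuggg
hsa-miR-196a-5p: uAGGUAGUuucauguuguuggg
The 4 matches in the HOXA7 3′ UTR are shown 5′ to 3′ on the mRNA strand with the match to the seed, ACTACCT, in capitals.
HOXA7, chr7:27154600-27154622, minus strand: tggcgcgtccaaaatACTACCTa
HOXA7, chr7:27154563-27154585, minus strand: tcgaggcacccccaaACTACCTa
HOXA7, chr7:27154448-27154470, minus strand: aaagtgaatctcactACTACCTa
HOXA7, chr7:27154430-27154452, minus strand: acctactcccctaaaACTACCTa
In the longest annotated 3′ UTR of each gene, 9 of 39 HOX genes (23.1%) held this 7-base match, compared with 7.1% of 19115 genes. There were 14 matches in 42.8 kb of HOX 3′ UTR (0.327 per kb) and 0.0442 per kb over all genes. HOXA9 and HOXC8 held 2 each, and HOXA5, HOXB1, HOXB6, HOXB7 and HOXB13 were among those that held 1. Only exact matches were counted, so sites that pair in another way are missed. HOXB8 held 0 exact matches, which does not show that it is no target. Among the tested carriers named here, HOXA5, HOXA7 and HOXB13 were called lower, and HOXA9, HOXB6 and HOXC8 were not called. Of all HOX genes tested, 13 of 29 were called lower, and of all genes tested 17.3%. HOXA5, HOXA7 and HOXA9 lie on chromosome 7, where 59.0% of genes tested were called lower. The part of miR-196 in these values was not tested. The libraries were made from poly(A) RNA, which does not measure mature microRNAs, and the 3 miR-196 rows had at most 3 counts in any library.

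Among the anterior HOXA genes, HOXA2, which patterns hindbrain and branchial arch derivatives, fell by 0.62 on the log2 scale (adjusted p = 0.012), but its adjusted p was 0.0528 without shCTRL replicate 2. HOXA3, required for thymus and parathyroid development, had 22.1, 23.1 and 22.5 CPM in shCTRL and 15.5, 12.99 and 12.8 CPM in shCCN3. The groups were well apart, and the difference was -0.71 on the log2 scale (SE 0.0894, adjusted p = 0.000294, all from edgeR's quasi-likelihood test).

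HOXA4 had 12.1, 12.1 and 14.2 CPM in shCTRL and 9.24, 10.2 and 8.74 CPM in shCCN3, without overlap, and fell by 0.45 on the log2 scale (adjusted p = 0.00788). HOXA5, which acts in lung development, fell by 0.43 (adjusted p = 0.0301). The HOXA5 call was the least stable in the cluster. It was lost without shCCN3 replicate 1 (adjusted p = 0.102), shCCN3 replicate 3 (0.109), shCTRL replicate 1 (0.0744), shCTRL replicate 2 (0.0561) or shCTRL replicate 3 (0.0996), all from edgeR. HOXA6 was low, at 0.838 ± 0.0853 and 0.504 ± 0.146 CPM, and its log2 fold change of -0.72 was not called (adjusted p = 0.072), although the groups did not overlap.

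Towards the posterior end of the cluster some genes were called lower and others were not called, and whether these genes differ was not tested. HOXA9, a regulator of blood progenitors, had the most positive log2 fold change in HOXA. It was 2.07, 2.04 and 3.11 CPM in shCTRL and 2.90, 2.56 and 2.61 CPM in shCCN3, and shCTRL replicate 3 was the highest of all 6 libraries. Its log2 fold change was 0.16 (adjusted p = 0.562). HOXA10, which acts in the uterus and the lumbar spine, had 21.2, 22.5 and 19.6 CPM in shCTRL and 15.5, 15.2 and 14.6 CPM in shCCN3. The HOXA10 groups did not overlap, and it fell by 0.48 on the log2 scale (SE 0.0780, adjusted p = 0.00131). HOXA11, a forelimb and uterus gene, fell by 0.74 (adjusted p = 0.00379), from 3.38 ± 0.232 to 2.03 ± 0.238 CPM. HOXA13, the last gene of the cluster and active in digits and the hindgut, was at 0.15 on the log2 scale (adjusted p = 0.491), and its 3 shCCN3 values lay just above the 3 shCTRL values. HOXA9 and HOXA13 thus lay 0.59 and 0.58 above the median of their chromosome on the log2 scale.

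The HOXB cluster on chromosome 17, from 48528526 to 48728750, held the genes that rose. HOXB9, which acts in the thorax and, with its paralogs, in mammary gland growth, had 31, 14 and 31 counts in shCTRL and 136, 126 and 163 counts in shCCN3. As CPM these were 0.451, 0.223 and 0.462 against 1.97, 2.27 and 2.55. The lowest shCCN3 value of HOXB9 lay far above its highest shCTRL value. HOXB9 was higher by 2.57 on the log2 scale (SE 0.273, adjusted p = 0.000108, edgeR's quasi-likelihood test), a 5.92-fold higher level, and it stayed between 2.31 and 2.73 across all alternatives. Among all genes tested, 209 had a larger positive value. No other gene of the annotation overlaps HOXB9 exons, and of their 50-base stretches 0% occurred in another gene.

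HOXB8, the gene beside HOXB9, had 5, 0 and 0 counts in shCTRL and 14, 12 and 10 counts in shCCN3. The groups did not overlap, but all 6 values were near the detection limit. HOXB8 passed the filter on low counts only through the shCCN3 libraries, where it was higher. The fitted difference was 2.84 on the log2 scale (SE 0.876, adjusted p = 0.0333), a value that depends on how the fit treats counts of 0. The call of HOXB8 was lost without shCCN3 replicate 1 (adjusted p = 0.100), shCCN3 replicate 2 (0.0546), shCCN3 replicate 3 (0.0694), shCTRL replicate 2 (0.111) or shCTRL replicate 3 (0.0956), all from edgeR, and without shCTRL replicate 1 both remaining control libraries were at 0.

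HOXB2, a hindbrain gene, rose more modestly. It had 7.74, 7.56 and 7.48 CPM in shCTRL and 11.2, 9.54 and 9.91 CPM in shCCN3, without overlap, and the rise was 0.43 on the log2 scale (SE 0.0928, adjusted p = 0.00643). HOXB3 was the most abundant HOXB gene by counts, with 27.3, 27.9 and 26.0 CPM in shCTRL and 24.1, 20.2 and 25.0 CPM in shCCN3. All HOXB3 values in shCCN3 were lower, the highest of them close to the lowest shCTRL value, and the log2 fold change of -0.23 was not called (adjusted p = 0.0804).

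HOXB6 had 14.6, 14.5 and 15.1 CPM in shCTRL and 15.8, 17.2 and 13.2 CPM in shCCN3. The shCCN3 values of HOXB6 spanned the shCTRL values, and its log2 fold change was 0.06 (adjusted p = 0.684). HOXB4, known for expanding blood stem cells, was 0.822 ± 0.0613 and 0.663 ± 0.393 CPM (log2 fold change -0.33, adjusted p = 0.545), and HOXB5 was 3.88 ± 0.477 and 2.82 ± 0.735 CPM (-0.47, adjusted p = 0.0963; SD, n = 3 each). In both, shCCN3 replicate 2 was the highest of its group. Without that library HOXB4 was at -0.91 on the log2 scale (adjusted p = 0.0240) and HOXB5 at -0.68 (adjusted p = 0.00764), by the same edgeR test. With any other single library left out neither was called, at -0.37 to -0.09 for HOXB4 and -0.57 to -0.31 for HOXB5.

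HOXB13, a prostate and hindgut gene set apart at the end of the cluster, went the opposite way to HOXB8 and HOXB9. It had 4.88, 4.86 and 5.72 CPM in shCTRL and 2.70, 2.38 and 2.36 CPM in shCCN3. The groups were well apart, and HOXB13 fell by 1.05 on the log2 scale (SE 0.129, adjusted p = 0.000249, edgeR), a 2.08-fold lower level.

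The HOXC cluster on chromosome 12, from 53938831 to 54056030, held the most abundant HOX mRNA. HOXC10, which specifies lumbar motor neurons, had 50.7, 48.0 and 49.0 CPM in shCTRL and 37.9, 38.1 and 36.2 CPM in shCCN3. The HOXC10 values were tight in each group and did not overlap, and the difference was -0.40 on the log2 scale (SE 0.0602, adjusted p = 0.000898, edgeR's quasi-likelihood test). HOXC13, which controls hair keratin genes, had the largest fall in the cluster, with 10.2, 9.79 and 10.3 CPM in shCTRL and 4.90, 5.38 and 5.30 CPM in shCCN3. All its shCCN3 libraries were near 5 CPM, and it fell by 0.96 on the log2 scale (SE 0.0902, adjusted p = 5.01e-05), the smallest adjusted p of any HOX gene. HOXC11 lay at 11.1, 11.1 and 11.7 CPM in shCTRL and 8.55, 7.49 and 6.91 CPM in shCCN3, without overlap, and fell by 0.56 (SE 0.0991, adjusted p = 0.00211).

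HOXC9 and HOXC8, which lie beside each other and act in the thorax, had positive log2 fold changes that were not called. Whether they differ from the rest of HOXC was not tested. HOXC9 had 9.62, 10.3 and 12.1 CPM in shCTRL and 15.0, 14.1 and 11.2 CPM in shCCN3. The groups overlapped, with the lowest shCCN3 value under the highest shCTRL value, and the log2 fold change of 0.33 was not called (adjusted p = 0.0810). It was called without shCCN3 replicate 3 (0.45, adjusted p = 0.0219) and without shCTRL replicate 3 (0.43, adjusted p = 0.0497). With any other single library left out it was not called, at 0.24 to 0.31. HOXC8 was 5.03 ± 0.627 and 5.48 ± 0.268 CPM, with a log2 fold change of 0.12 (adjusted p = 0.478, edgeR; SD, n = 3 each).

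HOXC4, HOXC5 and HOXC6 share a RefSeq start, and their exons overlap. HOXC6 had 20.3, 22.5 and 20.7 CPM in shCTRL and 17.4, 15.9 and 14.7 CPM in shCCN3, without overlap, and fell by 0.40 on the log2 scale (SE 0.0862, adjusted p = 0.00604). HOXC4 fell by 0.47 (adjusted p = 0.0116), from 8.02 ± 0.226 to 5.77 ± 0.765 CPM. HOXC5 was 4.02 ± 0.543 and 3.64 ± 0.524 CPM, with overlapping groups and a log2 fold change of -0.14 (adjusted p = 0.519, edgeR; SD, n = 3 each). On the same strand, 17.8% of HOXC4, 43.4% of HOXC5 and 15.7% of HOXC6 exon bases belong to another gene as well, so the split of reads among the 3 is uncertain. HOXC4 was called lower and HOXC5 was not called, but whether they differ and which starts were used were not tested. Their shared window is shown because the same RefSeq sequence stands for both starts. It lies at chr12:54016638-54016937 of GRCh38.p14 on the plus strand, with CCAAT boxes, read on either strand, in capitals.
HOXC4 and HOXC5 promoter: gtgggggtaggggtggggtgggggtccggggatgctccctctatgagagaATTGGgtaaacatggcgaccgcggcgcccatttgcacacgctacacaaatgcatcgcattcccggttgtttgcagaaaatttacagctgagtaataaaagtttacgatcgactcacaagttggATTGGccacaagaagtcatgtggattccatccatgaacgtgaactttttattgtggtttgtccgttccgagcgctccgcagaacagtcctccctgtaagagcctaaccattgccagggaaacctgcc
The window has 15 CpG dinucleotides and a GC content of 51.7%, both below the HOXA7 window, and holds 2 CCAAT boxes and none of the other motifs searched.

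In HOXD, on chromosome 2 from 176087487 to 176190907, the genes at the ends of the cluster were detected and those between were at or near 0. HOXD1 had 0, 9 and 10 counts in shCTRL and 14, 15 and 12 counts in shCCN3. The groups did not overlap, but counts were low, and the log2 fold change of 1.17 was not called (SE 0.733, adjusted p = 0.261). HOXD1 also passed the filter on low counts only through the shCCN3 libraries. On the opposite strand, 58.1% of HOXD1 exon bases are covered by other genes, HAGLR among them. HOXD13, a digit and urogenital gene, was 1.02 ± 0.152 CPM in shCTRL and 1.40 ± 0.264 CPM in shCCN3, with overlapping groups and a log2 fold change of 0.45 (adjusted p = 0.143, edgeR; SD, n = 3 each).

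Levels can be compared between genes only per length. Per kb of exon (GENCODE release 29), HOXC10 was highest in shCTRL at 21.1 ± 0.575 CPM per kb and in shCCN3 at 16.0 ± 0.443 CPM per kb (SD, n = 3 each). In shCTRL it was followed by HOXA4 at 7.34 ± 0.698, HOXC9 at 6.36 ± 0.760, HOXC6 at 5.98 ± 0.329, HOXA10 at 5.69 ± 0.383 and HOXB6 at 5.65 ± 0.130 CPM per kb. Genes next to each other among these 5 overlapped in their shCTRL values, and HOXC10 lay apart from all of them. In all, 15 of the 28 neighbouring pairs overlapped in their 3 shCTRL values, and 13 did not. In shCCN3 the order after HOXC10 was HOXC9 at 7.99 ± 1.18, HOXB6 at 5.91 ± 0.773 and HOXA4 at 5.38 ± 0.431 CPM per kb. HOXA7 went from place 20 to place 26 of 29, and HOXB9 from place 27 to place 21. With coding length in place of exon length, HOXC10 was again first, and 22 genes changed place, by at most 6.

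Summed over clusters, 8 of the 13 paralog groups had all shCCN3 libraries below all shCTRL libraries, and 1 had them above. Over single genes tested, shCCN3 lay below in 23.6% and above in 22.7%. HOXA genes lie on chromosome 7, whose median was -0.43 on the log2 scale. In shCTRL, HOXA3 made up 59.0% of group 3, HOXA4 69.8% of group 4, HOXA10 21.2% of group 10 and HOXA13 5.20% of group 13. The part of the chromosome 7 difference in the sums was not tested. Paralog group 10, made of HOXA10 and HOXC10, was the largest, at 26.8 ± 0.574 CPM per kb in shCTRL and 20.1 ± 0.552 CPM per kb in shCCN3. Both members tested in groups 10 and 11 were called lower. Group 3 went from 8.87 ± 0.209 to 6.29 ± 0.553, group 4 from 10.5 ± 0.722 to 7.67 ± 0.739 and group 13 from 6.46 ± 0.294 to 3.86 ± 0.0641 CPM per kb (SD, n = 3 each). Group 7, which here was almost all HOXA7, went from 0.997 ± 0.121 to 0.199 ± 0.0960 CPM per kb. These sums were not tested.

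Paralogs of 1 number did not always get the same call, and whether the members of a group differ was not tested. In group 2, HOXA2 was called lower and HOXB2 higher. HOXA2 lay at only -0.20 on the log2 scale relative to the median of chromosome 7. The sum of group 2 was 5.78 ± 0.191 and 6.02 ± 0.389 CPM per kb. The HOXB2 share went from 56.3% ± 2.85 to 72.7% ± 4.76 (SD, n = 3 each). In group 13, HOXB13 and HOXC13 were called lower and HOXA13 and HOXD13 were not called. The share of HOXC13 in that group was 64.8% ± 1.67 and 55.6% ± 3.48, and that of HOXD13 was 7.06% ± 0.855 and 16.2% ± 2.81. In group 6, HOXC6 was called lower, and HOXB6, its near equal per kb, was not called.

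Group 9 was the only paralog group whose summed level was higher in every shCCN3 library, at 6.59, 6.91 and 8.41 CPM per kb in shCTRL and 10.6, 10.1 and 8.51 CPM per kb in shCCN3. The lowest shCCN3 sum lay just above the highest shCTRL sum. HOXC9 made up 87.2% ± 1.70 of the group in shCTRL and 81.7% ± 2.996 in shCCN3, and HOXB9 made up 2.01% ± 0.710 and 9.16% ± 2.25 (SD, n = 3 each). All 3 expressed members had positive log2 fold changes, of 0.16, 2.57 and 0.33 in HOXA9, HOXB9 and HOXC9, and only HOXB9 was called; whether the members differ was not tested.

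**Figure D3:**
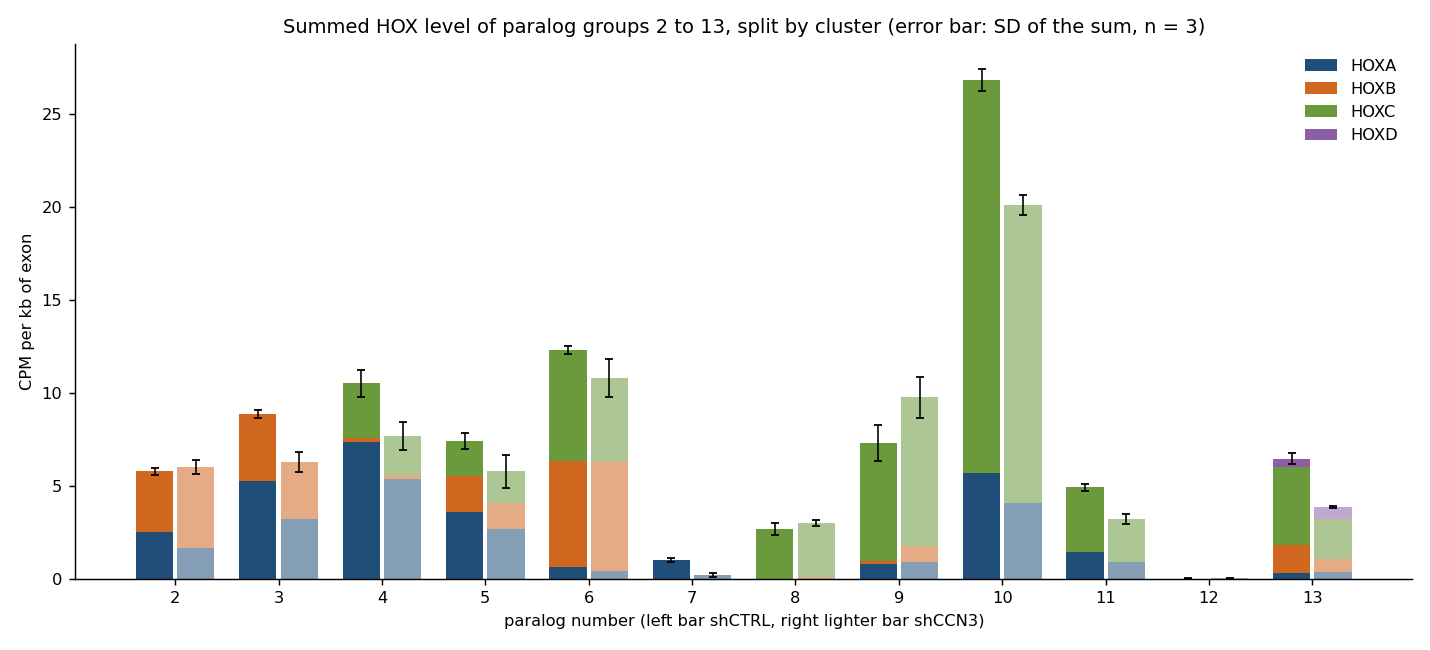
Summed HOX level of paralog groups 2 to 13 in CPM per kb of exon (vertical axis), as means of 3 libraries split by cluster, with shCTRL as the left and shCCN3 as the right, lighter bar of each pair; error bars are the SD of the sum. Group 10 went from 26.8 to 20.1 CPM per kb, and group 9 from 7.30 to 9.76.

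Genes around the clusters were compared with the members, taking the 10 nearest tested protein-coding genes on each side. Around HOXA, 15 of 20 neighbours were called lower and 0 higher, and their median was -0.36 on the log2 scale, close to that of chromosome 7. On the higher side, 0 of these 20 had an unadjusted p under 0.05, and DESeq2, edgeR's exact test and limma-voom also called 0. Around HOXB, 4 were called higher and 3 lower (median 0.04), and around HOXD 5 higher and 2 lower (median 0.06), shares close to the 33.4% called over all genes tested. Around HOXC, 6 were called lower and 1 higher, and their median of -0.20 lay between that of HOXC (-0.40) and that of chromosome 12 (0.04). Neighbours with the smallest p were NXPH3 beyond HOXB (log2 fold change 2.45), ZNF385A (-3.23), METTL7B (-1.36) and ITGA7 (-1.79) beyond HOXC, and OSBPL3 near HOXA (-1.05). No tested neighbour between HOXB13 and 847 kb beyond the cluster rose as HOXB9 did: the 8 genes before NXPH3 had log2 fold changes of -0.32 to 0.25.

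**Figure D4:**
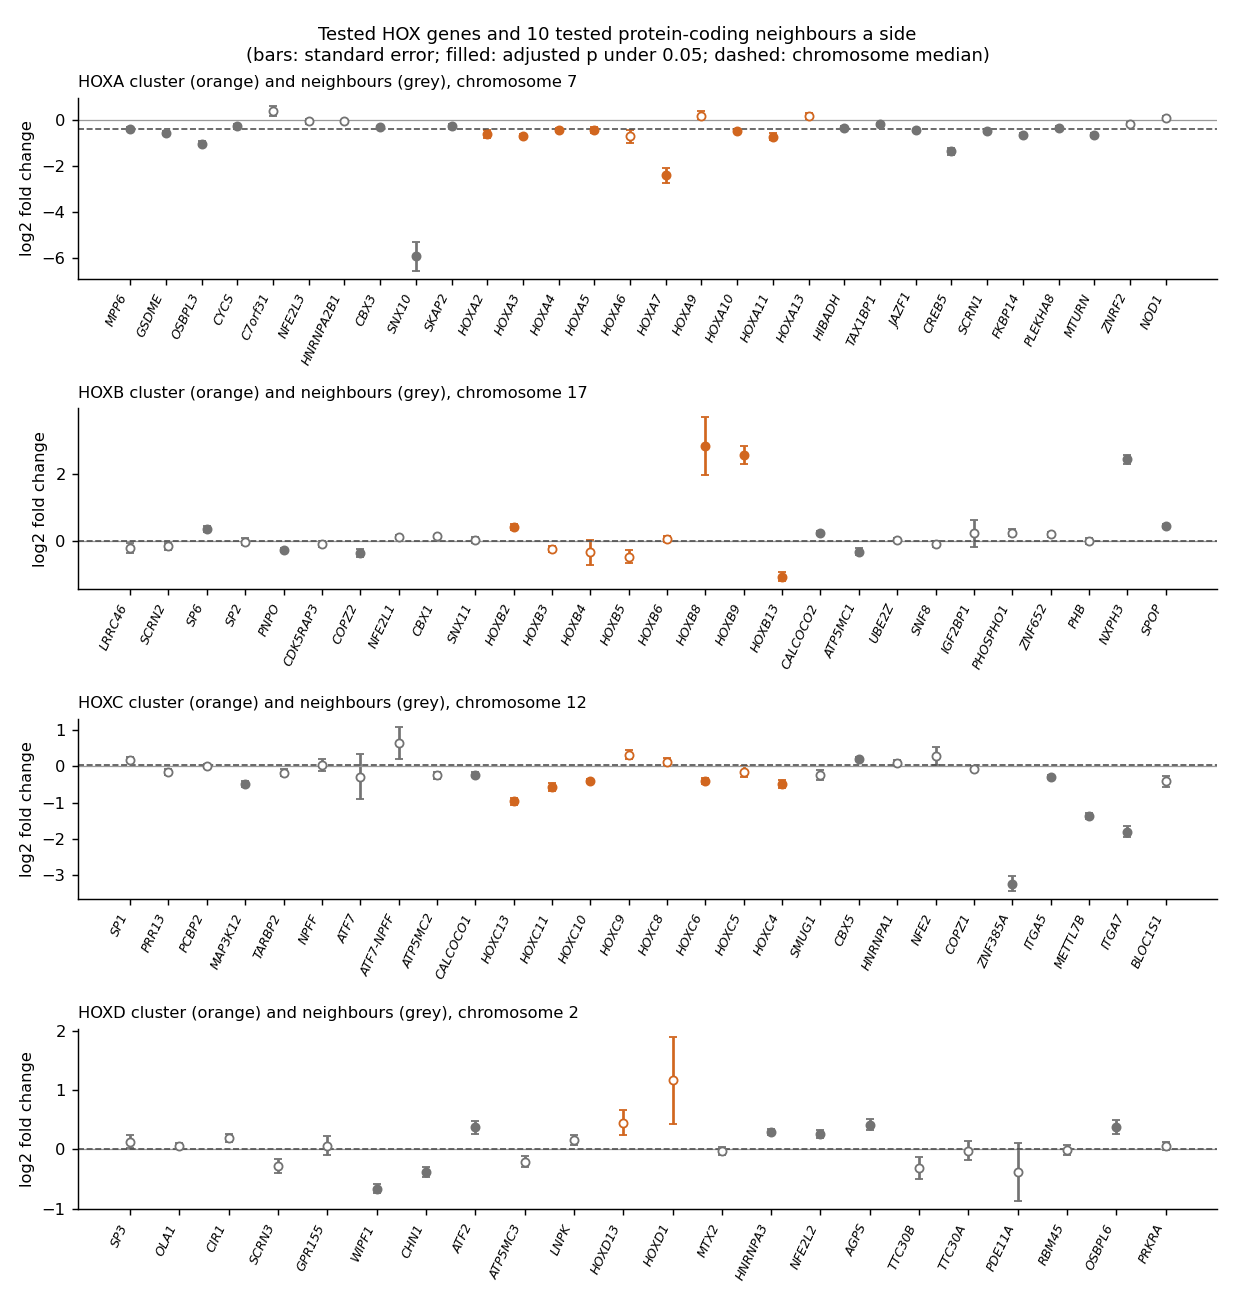
Log2 fold change (vertical axis, bars are standard errors) of tested HOX genes (orange) and their tested protein-coding neighbours (grey) in gene order, 1 panel per cluster; filled points have an adjusted p under 0.05, and dashed lines are the median of all genes tested on the chromosome. Around HOXA most grey points lie near the dashed line at -0.43, as do most HOXA genes other than HOXA7.

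Noncoding genes of the clusters were mostly low. Of 23 names listed, 19 were in the table, 11 were tested, 1 was called higher and 1 lower, where 33.4% of all genes tested were called. HAGLR, an antisense RNA of the HOXD cluster, rose from 1.48 ± 0.337 to 2.89 ± 0.518 CPM (log2 fold change 0.96, adjusted p = 0.00644), and HOTAIRM1, a noncoding RNA of the HOXA cluster, fell by 0.40 on the log2 scale (adjusted p = 0.0143), from 15.9 ± 1.24 to 12.1 ± 1.34 CPM (SD, n = 3 each). HOTAIR, transcribed from the HOXC cluster and known to recruit chromatin repressors, was 2.16 ± 0.0780 and 1.62 ± 0.486 CPM and was not called (log2 fold change -0.41, adjusted p = 0.202). The number called was 1 without shCCN3 replicate 1 and without shCTRL replicate 3, and 3 without shCCN3 replicate 2. Whether counting used the strand is not given in the sources used here, so antisense genes and the HOX genes they overlap cannot be told apart with certainty. More than 10% of exon bases overlap another gene on the opposite strand in 10 HOX genes, and on the same strand in 11.

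Cofactors of HOX proteins moved in both directions. Of 9 PBX, MEIS and PKNOX genes, 3 were called higher and 2 lower, where 33.4% of all genes tested were called. Their median was 0.04 on the log2 scale, and their summed level was 183 CPM in every shCTRL library and 172 to 178 CPM in shCCN3. PBX2 rose by 0.35 on the log2 scale (adjusted p = 0.00153) and PBX4 by 0.58 (adjusted p = 0.0329). MEIS3 fell by 0.53 (adjusted p = 0.000292), and PKNOX2 rose by 0.74 (adjusted p = 0.00211). The other 4, MEIS1 and MEIS2 among them, were not called, with log2 fold changes of -0.27 to 0.11.

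Other homeobox genes of the ANTP class, the class to which HOX genes belong, were compared from a list of 49. Of these, 19 were tested, 4 were called higher and 7 lower, beside 16.2% and 17.3% of all genes tested. Their median was -0.11 on the log2 scale, and 24 were at 0 in all libraries. The 5 with the smallest p were lower in shCCN3. They were VAX2 (log2 fold change -0.96) and VAX1 (-0.67), which act in the forebrain and eye, EN1 (-0.53), which acts in midbrain and limb, and DLX3 (-1.01) and DLX5 (-0.60), which act in skin, jaw and bone. DLX5 lies on chromosome 7 as HOXA does. The number called was 7 without shCCN3 replicate 1 or shCTRL replicate 1 and 6 without shCTRL replicate 2.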

How the data were processed

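RNA-seq was made by the authors from 3 shCTRL and 3 shCCN3 Hs578T samples with a stranded poly(A) kit. They deposited raw read counts per gene for 46427 genes. The submitters' processing notes name GRCh38, Trimmomatic, HISAT2 2.1.0, StringTie 2.1.3d and DESeq2, without roles. The table holds more values of 2 (5131) than of 1 (4248). Groups came from sample titles and column names.

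Counts were analysed with edgeR 4.0.16 in R 4.3.3, using TMM normalization, the filter on low counts by group (17419 genes left), the quasi-likelihood test and Benjamini-Hochberg adjustment. A call is an adjusted p under 0.05. CPM uses TMM-scaled library sizes. Alternatives were DESeq2 1.42.0, limma 3.58.1 (voom), the edgeR exact test, other scalings and filters, a replicate block and each library left out. Scripts were tested on simulated data. The authors describe their experiments in general as repeated in independent trials, and the sample titles number the replicates. Beyond that, what separated these replicates is not stated in the sources used here, and p-values measure the spread between these samples.

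The members, gene lists and tests were chosen with earlier results of these data known. By rule, every tested HOX gene reported here is named, with values per library where called and 2-fold changed, at 10 CPM or more in a group, or at a cluster's extreme, and from other lists at most the 5 called genes with the smallest p. Positions are from RefSeq GRCh38.p14, matched to 96.3% of Gene IDs. Exons and 3′ UTRs are from GENCODE release 29. Some genes are not reported here.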

Additional observations from a re-analysis of the deposited data

How the results depend on the processing

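Under the 14 alternatives, 371 of 390 recomputed HOX log2 fold changes kept their direction and their side of the threshold, and 13 of the 16 called genes kept the call in all of them. HOXA2, HOXA5 and HOXB8 lost it in at least 1. When single libraries were left out, the sign turned in HOXB6 (log2 fold change between -0.020 and 0.16), which was not called. The number of HOX genes called lay between 13 and 17, of those at least 2-fold changed between 2 and 4, of noncoding genes between 1 and 3, of other ANTP-class genes between 6 and 11 and of neighbours between 25 and 48. Among all genes tested, the number called ranged as well, from 4181 without shCTRL replicate 2 to 7229 without shCCN3 replicate 2. In these fits the HOX numbers were 13 and 17, and the neighbour numbers 25 and 48. Why the numbers moved was not tested. Requiring 10 counts in every sample dropped HOXB8 and HOXD1, and without the filter HOXB8 had an adjusted p of 0.0956. The edgeR exact test also called HOXA6 (adjusted p = 0.0448). Scaling moved the median of all genes tested by less than 0.01.

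Samples with the same replicate number did not deviate together (correlations 0.0891, -0.0256 and -0.0657), so the numbers were not taken as pairs. A fit with the replicate block called 15 HOX genes, 12 of them lower, and 4887 of all genes. HOXA5 had an adjusted p of 0.0549 in it, 6 HOXA genes were called, and no other HOX call changed. Low counts limit the precision for HOXB8 and HOXD1, and the 10 genes not tested had too few counts for a fold change. The cause of the low counts was not tested.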
